A study of Mus musculus with 4 samples.

Results

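The replication-dependent histone genes of the mouse were followed in cultured spermatogonia and in the feeder cells beneath them. The set was taken by gene symbol alone and holds every feature whose symbol begins with Hist1h, Hist2h, Hist3h or Hist4h, which gave 67 of the 32285 genes in the deposited tables. By family these were 6 linker histone genes (H1), 18 H2A, 18 H2B, 12 H3 and 13 H4 genes. Primary spermatogonial cultures had been started from 3 male pups at postnatal day 6, by magnetic selection of Thy1-positive testis cells, a fraction enriched in undifferentiated spermatogonia, and were kept on a feeder layer of STO, an embryonic fibroblast line of the mouse. For 3 days they received PBS (vehicle) or 1 μg/mL of extracellular vesicles (EVs), which had been isolated from whole testes at postnatal day 7, with 2 libraries per arm, and were sequenced as single cells on the 10x Genomics platform. All libraries thus shared the pups' age, the selection, the feeder layer and the time in treatment. The study's methods name C57BL/6 for mice it purchased and for the EV donors, and no other strain for the pups. Counts of vehicle 1, vehicle 2 and EV 1 were used, and the expression of EV 2 was not analysed here, so that the EV arm rests on 1 library and was compared without a test.

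Core histones H2A, H2B, H3 and H4 form the protein spool of the nucleosome, and linker histone H1 sits on the DNA where it enters and leaves. Each S phase needs a full new complement of them, and the replication-dependent genes, which lie in clusters and mostly lack introns, provide it. Their messenger RNAs are the only ones of animal cells known to end without a poly(A) tail. They end just after a short stem-loop, which is bound by the stem-loop binding protein Slbp and cut with the help of the U7 snRNP, and they are made in S phase and lost at its end. Some of the genes can also make longer, polyadenylated messengers, as is known from cells that have left the cycle. Droplet libraries primed with oligo(dT) count messengers with a poly(A) tail or an internal run of A, so that the values below count captured molecules and not the whole pool of histone messengers.

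The 3 libraries held 9291, 9738 and 5249 barcodes and 23686047, 27444797 and 10793232 unique molecular identifiers (UMIs, 1 per captured molecule) in vehicle 1, vehicle 2 and EV 1. Pairs among these 3 libraries shared 12 to 20 barcodes, and pairs with EV 2 shared 11 to 22. After filtering, 8263, 8637 and 4779 cells remained. Cells were classed as germ cells when the UMIs of Dazl, Tex15, Stk31 and Epcam together numbered at least 2 and exceeded those of Col1a1, Col1a2, Sparc and Dcn, and as feeder cells in the reverse case, so that no histone gene entered the classes. Germ cells numbered 4411, 4783 and 227, and feeder cells 2357, 2473 and 2508, in the same order. The other 1495, 1381 and 2044 cells, or 18.1%, 16.0% and 42.8% of those kept, fell in neither class and were not used. Germ cells were thus 53.4% and 55.4% of kept cells in the vehicle libraries and 4.75% in EV 1. Median depth was 1936, 2091 and 1322 UMIs per germ cell and 3635, 3896 and 2448 per feeder cell. Levels are given as CPM, the UMIs of a gene when those of its class and library are scaled to a total of 1000000, without length scaling, and 1 UMI in the 227 germ cells of EV 1 corresponds to 3.08 CPM. The classes were checked against markers that the rule did not use. The germ cell genes Ddx4, Dnd1, Sall4, Mael, Tdrd5 and Taf4b summed to 511 to 527 CPM in germ cells and to 3.39 to 16.3 CPM in feeder cells, while a fibroblast list of 10 genes summed to 8884 to 11954 CPM in feeder cells. In germ cells that fibroblast list stood at 990 and 784 CPM in the vehicle libraries and at 2326 CPM in EV 1. Of the other lists, Sertoli cell genes reached 283 to 305 CPM in feeder cells, and Leydig, peritubular myoid, macrophage and endothelial genes stayed at or below 24.6 CPM in either class. The vehicle libraries differed from each other beyond counting noise, with a chi-square per degree of freedom of 2.31 over all germ cell genes and 2.93 over 53 histone genes. The labels call them biological replicates and the study calls them independent, but the sources used here do not tie them to separate pups. With the library as a block, p-values rest on how the difference between classes or phases varied across the 3 libraries, EV 1 among them. They cannot speak for separate pups.

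The genes lay in 4 clusters of the GRCm38 assembly. The Hist1 cluster on chromosome 13 (21715763 to 23934851) held 54 genes and 33088 of their UMIs, the Hist2 cluster on chromosome 3 (96219865 to 96270132) 10 genes and 1400 UMIs, the Hist3 pair on chromosome 11 (58948920 to 58956830) 891 UMIs, and Hist4h4 on chromosome 6 (136801553 to 136804415) 64 UMIs. A single exon was annotated for 62 of the 67. The hallmark stem-loop, a run of 16 bases, was found in an annotated transcript of 44 genes, 21 to 58 bases after the stop codon (median 31), in 6 spellings. The commonest, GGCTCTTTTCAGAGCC, stood in 26 genes of H1, H2A, H2B and H3, whereas H4 genes carried their own forms, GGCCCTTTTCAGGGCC in 7, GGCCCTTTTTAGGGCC in 2 and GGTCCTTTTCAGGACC in 2. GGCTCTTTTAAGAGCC was found in 6 genes of H1, H2B and H3. In 25 genes the annotated transcript ran on for 50 bases or more past the stem-loop, up to 4884 bases in Hist1h1d, and such an end could hold a poly(A) site. The stem-loops of members that recur in the results are shown 5′ to 3′ with up to 5 bases on each side and the 16 bases in capitals, since a captured molecule has to come from a transcript that passes this point or is primed before it.
Hist1h1c: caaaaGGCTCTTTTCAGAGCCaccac
Hist1h1d: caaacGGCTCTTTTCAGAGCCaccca
Hist1h1e: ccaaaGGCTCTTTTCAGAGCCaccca
Hist1h1t: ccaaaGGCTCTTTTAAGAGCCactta
Hist1h2ae: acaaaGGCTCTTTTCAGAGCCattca
Hist1h2ap: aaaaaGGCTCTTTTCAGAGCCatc
Hist3h2a: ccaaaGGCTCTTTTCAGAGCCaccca
Hist1h3c: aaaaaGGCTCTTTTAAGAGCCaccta
Hist1h4c: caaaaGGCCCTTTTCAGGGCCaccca
Hist1h4d: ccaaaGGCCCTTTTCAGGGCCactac
Hist1h4h: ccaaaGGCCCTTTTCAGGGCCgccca
Hist1h4i: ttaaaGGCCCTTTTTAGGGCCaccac
The annotated transcript continued past these stem-loops for 840 bases in Hist1h1c, 1153 in Hist1h1e, 1643 in Hist3h2a, 770 in Hist1h4d and 330 in Hist1h4i, but for only 3 bases in Hist1h2ap. No stem-loop lay in the annotated transcript of Hist1h1b (743 bases), Hist1h1a (741 bases) or Hist1h2bc, the last of which was annotated with 2 exons and 1156 bases. The transcript of Hist1h1b was annotated with 0 bases after the stop codon and that of Hist1h1a with 48. Most members without a stem-loop were likewise annotated to end at or near the stop codon. A missing stem-loop can therefore reflect a short annotation and is not evidence that the gene lacks it. Many members resemble each other closely. In 29 of them more than 50% of all 60-base windows also occurred in another member, among them Hist1h2ap (92.9%) and Hist1h3e (68.0%), so that their counts are uncertain, while Hist1h1a and Hist1h1b shared no window. Hist1h2be overlaps Hist1h1e on the same strand.

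Promoters were compared because the members of a family have been described to share elements there. RefSeq windows of GRCm38.p6, from 250 bases before to 50 bases after the start, were found for 61 of the 67 genes and were searched on both strands. TATAAA stood in 35 of the 61 (57.4%) against 14.2% of 27025 promoters. CCAAT stood in every window of the H1, H2A, H2B and H3 genes but in 3 of 12 H4 windows (25%), against 37.9% of all promoters. The run AAACACA, known from H1 promoters, was in 5 of 6 H1 windows and in 7.14% of all promoters. The octamer ATTTGCAT was in 7 of 17 H2A and 6 of 16 H2B windows and in none of the other families, against 1.75% of all promoters. H2A and H2B genes often face each other, so that a single element can lie in 2 windows. The 150 bases before the start are shown for 4 genes that stand for the contrasts below, 2 of them higher in germ cells (Hist1h1b, Hist1h2ae) and 2 higher in feeder cells (Hist1h1c, Hist1h4i), with every match of the 4 motifs on either strand in capitals.
Hist1h1b, chr13:21780626-21780775, minus strand: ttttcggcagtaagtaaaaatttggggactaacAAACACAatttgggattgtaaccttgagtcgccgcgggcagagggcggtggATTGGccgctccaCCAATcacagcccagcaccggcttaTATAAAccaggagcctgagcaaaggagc
Hist1h1c, chr13:23738657-23738806, plus strand: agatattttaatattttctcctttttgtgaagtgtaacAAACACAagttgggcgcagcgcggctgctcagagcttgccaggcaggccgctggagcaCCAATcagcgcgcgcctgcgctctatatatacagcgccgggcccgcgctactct
Hist1h2ae, chr13:23571221-23571370, minus strand: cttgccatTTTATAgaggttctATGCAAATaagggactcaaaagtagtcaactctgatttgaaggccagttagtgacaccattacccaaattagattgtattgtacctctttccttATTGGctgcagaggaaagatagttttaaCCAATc
Hist1h4i, chr13:22041363-22041512, minus strand: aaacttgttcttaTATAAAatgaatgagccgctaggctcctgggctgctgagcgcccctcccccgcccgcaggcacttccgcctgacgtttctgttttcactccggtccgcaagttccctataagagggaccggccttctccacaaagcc
In the 150 bases shown, the H1 genes Hist1h1b and Hist1h1c both carried AAACACA and CCAAT, and only Hist1h1b carried TATAAA. The part of these motifs in the levels was not tested. A match describes letters only and is not evidence of binding.

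Captured histone molecules were present in both classes, at a higher level in germ cells. The 67 genes summed to 1062, 1003 and 732 CPM in germ cells of vehicle 1, vehicle 2 and EV 1, and to 536, 520 and 503 CPM in feeder cells. Germ cells thus held 1.98 times the feeder level in vehicle 1 (95% interval 1.92 to 2.05, counting error only, as for all intervals here), 1.93 times in vehicle 2 (1.87 to 1.99) and 1.46 times in EV 1 (1.27 to 1.66). In germ cells 65 genes had a UMI, 42 had at least 50, and the highest 4 took 47.5% of the 21321 UMIs, led by Hist1h1b with 18.8%. Feeder cells used a narrower set. There 62 genes had a UMI, 25 had at least 50, and the highest 4 took 66.8% of 14122 UMIs, led by Hist1h2bc with 31.0%. Hist1h2bq and Hist2h2aa2, which share 96.7% and 100% of their windows with other members, had none in either class, and Hist1h4m, Hist1h2ah and Hist1h2ba had none in feeder cells (the 5 were named after their values were seen).

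The family make-up differed between the classes. In germ cells H1 took 38.0% and 43.6% of the histone UMIs in the vehicle libraries and H2A 29.2% and 25.8%. In feeder cells H2B led with 34.0% and 35.5%, followed by H4 with 28.3% and 26.1%. Relative to feeder cells, germ cells of the vehicle libraries held 3.63 and 3.72 times as much H1, 4.33 and 4.10 times as much H2A and 3.70 and 3.43 times as much H3 (ratios of summed CPM). H4 was nearly even at 1.07 (0.999 to 1.15) and 1.02 (0.945 to 1.09), and H2B was lower in germ cells at 0.631 (0.584 to 0.681) and 0.563 (0.523 to 0.606). EV 1 kept H2A and H2B near these values (4.11 and 0.628), and stood lower for H1 (2.40), H3 (2.32) and H4 (0.708).

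**Figure D1:**
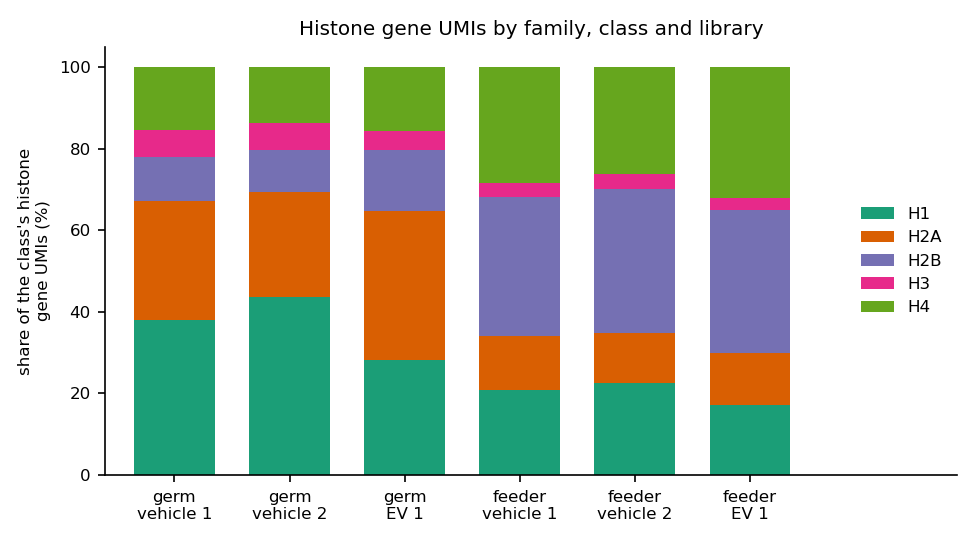
Share of the class's histone gene UMIs taken by each family (vertical axis, percent), for germ and feeder cells of the 3 libraries with counts. Germ cell bars are dominated by H1 and H2A, with H1 at 38.0%, 43.6% and 28.2%, and feeder bars by H2B and H4.

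To compare the classes gene by gene, UMIs were summed per library and class and tested with edgeR's quasi-likelihood test, with the library as a block and Benjamini-Hochberg adjustment over all 15637 genes that passed the filter on low counts (called at an adjusted p under 0.05). Of the 67 genes, 45 passed the filter and 22 did not. Of the 45, 28 were higher in germ cells, against 40.1% of all genes tested, 10 were higher in feeder cells, against 41.7%, and 7 were not called. The median log2 fold change, germ over feeder, was 1.47 over these 45 and -0.03 over all genes tested. The filter kept several genes on the strength of 1 or 2 UMIs in the small germ cell pool of EV 1, and without EV 1 the test ran on 53 members and called 36 and 10. A gene could also pass the filter through 1 class alone. Hist1h1t, Hist1h2aa, Hist1h2ah, Hist1h4m and other members had few or no UMIs in feeder cells and passed through germ cells alone. They could be called only as higher in germ cells, yet they count among the 28 and in the median of 1.47. Scaling by library totals in place of TMM factors moved the median of all genes by 0.37 and gave 30 and 9 calls.

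**Figure D2:**
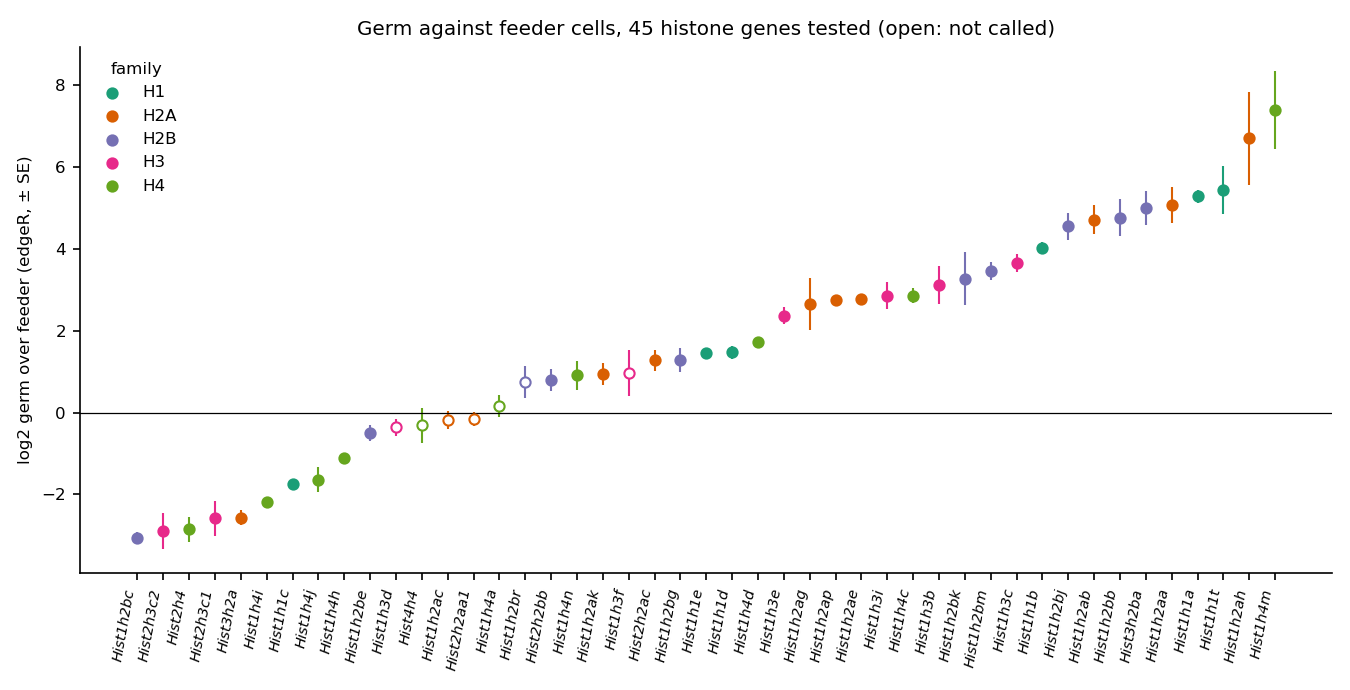
Log2 fold change of germ over feeder cells (vertical axis, with its SE as the bar) for the 45 histone genes tested, in order of size and coloured by family, with open symbols for the 7 not called. H1, H2A and H2B genes fill most of the right side, from Hist1h1e at 1.47 to Hist1h1a at 5.28 and beyond, and Hist1h2bc stands at the far left with -3.06.

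Of the 6 linker histone genes, 5 were higher in germ cells and Hist1h1c was higher in feeder cells, against 40.1% and 41.7% of all genes tested. Hist1h1b (chr13:21779883-21780625, minus strand) was measured at 181, 206 and 86.2 CPM in germ cells of vehicle 1, vehicle 2 and EV 1 and at 11.3, 8.74 and 1.18 CPM in feeder cells. Hist1h1a (chr13:23763666-23764406, plus strand) stood at 86.6, 93.2 and 40.0 CPM in germ cells and at 2.09, 1.77 and 0.147 CPM in feeder cells. Each germ cell value of both genes lay above every feeder value. The log2 fold changes were 4.01 (SE 0.15) and 5.28 (SE 0.17), with edgeR adjusted p of 2.95e-18 and 2.04e-19. Hist1h1e was also higher in germ cells, at 81.5, 85.7 and 43.1 CPM against 22.9, 22.8 and 16.9 CPM (log2 1.47, SE 0.10), and Hist1h1d followed the same order at 18.4, 20.0 and 12.3 against 5.65, 5.02 and 3.83 CPM (1.47, SE 0.16). Hist1h1t, the linker histone of the testis that is best known from meiotic cells, was low but near absent from feeder cells, with 49, 58 and 1 UMIs in germ cells (5.19, 5.27 and 3.08 CPM) against 1, 0 and 1 UMIs (log2 5.44, SE 0.59). Having passed the filter through germ cells alone, Hist1h1t could be called only in this direction. Hist1h1c went the other way. It stood at 30.4, 27.1 and 21.5 CPM in germ cells and at 69.0, 79.1 and 63.5 CPM in feeder cells (-1.75, SE 0.10, edgeR adjusted p = 4.43e-14).

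Of 11 H2A genes tested, 8 were higher in germ cells (40.1% of all genes), 1 was higher in feeder cells (41.7% of all genes) and 2 were not called. Hist1h2ap (chr13:21833026-21833507, minus strand) stood at 118, 94.5 and 89.2 CPM in germ cells against 14.5, 10.4 and 7.22 CPM in feeder cells (log2 2.75, SE 0.11). Hist1h2ae (chr13:23570517-23571220, minus strand) stood at 111, 90.4 and 120 CPM against 12.03, 10.97 and 10.3 CPM (2.77, SE 0.11). In neither gene did the classes overlap. Hist3h2a, which overlaps Trim17 on the same strand, was the H2A gene of the feeder cells, at 23.3, 20.7 and 21.7 CPM, against 4.55, 4.27 and 21.5 CPM in germ cells (-2.57, SE 0.18). Here the classes overlapped in EV 1, whose germ cell value rests on 7 UMIs. Hist2h2ac was higher in germ cells of the vehicle libraries (11.2 and 8.54 against 3.45 and 2.14 CPM) but had no UMI in those of EV 1, and its call (1.28, SE 0.26) was lost without vehicle 1 (edgeR adjusted p = 0.089) or vehicle 2 (0.13). The variant gene Hist1h2aa, known as testis-specific and named after its values were seen, had 89, 85 and 1 UMIs in germ cells and 3, 1 and 0 in feeder cells (5.06, SE 0.44). It passed the filter through germ cells alone and could be called only as higher there.

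**Figure D3:**
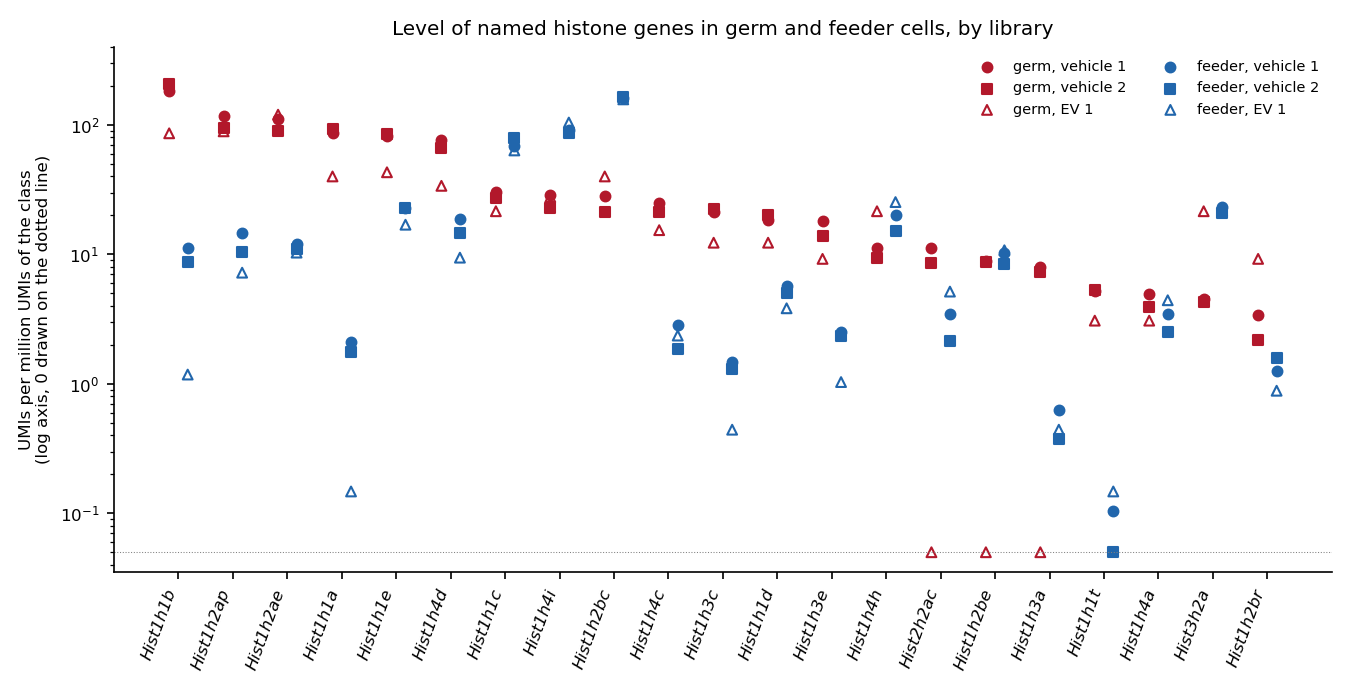
Level of the 21 named histone genes in germ cells (red) and feeder cells (blue), as CPM of the class on a log axis, with a symbol per library and zeros drawn on the dotted line. Hist1h1b, Hist1h2ap and Hist1h2ae lead in germ cells, and Hist1h2bc, Hist1h4i and Hist1h1c stand higher in feeder cells.

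Among H2B genes the summed level was lower in germ cells although most of the genes were higher there, since Hist1h2bc outweighed the rest. Hist1h2bc (chr13:23684199-23692908, plus strand) stood at 28.1, 21.1 and 40.0 CPM in germ cells and at 161, 165 and 158 CPM in feeder cells (-3.06, SE 0.15, edgeR adjusted p = 1.41e-15). The groups did not overlap. Of the 10 H2B genes tested, 7 were higher in germ cells and 2 in feeder cells, beside 40.1% and 41.7% of all genes, and Hist1h2br was not called (0.75, adjusted p = 0.078 in edgeR). Those higher in germ cells ranged from Hist2h2bb with 0.79 to Hist3h2ba with 5.00. The second gene higher in feeder cells, Hist1h2be, was nearly even in the vehicle libraries (8.89 and 8.72 against 10.3 and 8.46 CPM), and its call (-0.50, adjusted p = 0.017) was lost without vehicle 1 (edgeR adjusted p = 0.16) or vehicle 2 (0.055).

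Calls among H3 and H4 genes went both ways (over all genes, 40.1% were higher in germ and 41.7% higher in feeder cells). Of 8 H3 genes tested, 4 were higher in germ cells and 2 in feeder cells, the former led by Hist1h3c at 21.4, 22.3 and 12.3 CPM against 1.46, 1.30 and 0.442 CPM (3.65, SE 0.21), and Hist1h3e had the lowest value of the 4 (2.37, SE 0.20). The H3 genes higher in feeder cells were the pair Hist2h3c1 (-2.58) and Hist2h3c2 (-2.89). Of 10 H4 genes, 4 were higher in each class, a share near that over all genes, and 2 were not called. Nearly all of these genes encode the same H4 protein, and the classes differed in which of them were captured. Hist1h4d stood at 77.1, 66.5 and 33.8 CPM in germ cells against 18.6, 14.5 and 9.43 CPM in feeder cells (1.73, SE 0.11). Hist1h4c stood at 25.1, 21.1 and 15.4 CPM against 2.82, 1.86 and 2.36 CPM (2.86, SE 0.19). Both genes were separated by class in every library. Hist1h4i (chr13:22040636-22041362, minus strand) was the H4 gene of the feeder cells, with 92.0, 87.0 and 104 CPM there and 28.9, 22.9 and 27.7 CPM in germ cells (-2.18, SE 0.11). Hist1h4h (-1.12, SE 0.14), Hist1h4j (-1.64) and Hist2h4 (-2.85) shared its direction, and Hist1h4a was not called (0.15, SE 0.26).

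A low level of a germ cell gene in feeder cells can be read against markers that feeder cells should lack. The 6 germ cell check genes stood in feeder cells at 3.12%, 2.54% and 0.664% of their germ cell level in vehicle 1, vehicle 2 and EV 1. Of the 28 histone genes higher in germ cells, only Hist1h1a, Hist1h1t, Hist1h2ah and Hist1h4m were measured at or below that share in both vehicle libraries. For none of the 4 was this resolved by the counts. Hist1h2ah and Hist1h4m had no UMI in feeder cells, and the lower bound of the ratio of germ to feeder cells in the vehicle libraries was 26.6 and 33.6 for Hist1h1a and 3.63 to 14.9 for the other 3 genes, each of which allows a share above that of the check genes. Hist1h1b, Hist1h2ap and Hist1h2ae lay above it in the vehicle libraries. In the other direction, the fibroblast check genes stood in germ cells at 10.4%, 8.83% and 19.5% of their feeder level, and of the 10 histone genes higher in feeder cells none lay at or below that share in the vehicle libraries. In EV 1, with its few germ cells, 7 of the 28 and 4 of the 10 lay at or below the respective share.

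The annotated 3′ ends are given as counts, without a test. Among the 10 genes higher in feeder cells, 8 had a transcript that ran 50 bases or more past the stem-loop, and the longest annotated transcript had a median of 1358 bases. Among the 28 higher in germ cells, 12 had such an end, 9 ended within 50 bases of the stem-loop and 7 had no stem-loop annotated, with a median of 522 bases. A stem-loop can be missing because the annotated transcript stops at or near the stop codon, as in Hist1h1b. The filter on low counts had removed 1 of 25 genes with a long end, 8 of 19 that ended near the stem-loop and 13 of 23 without one, so that the counts do not cover the ends evenly. Sequence shared with other members went along with these calls (a median of 24.9% of windows in the 10 genes and of 40.6% in the 28), and the part of either was not tested.

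Of 14 histone genes in the tables that are not tied to replication, 11 were tested, 6 of them higher in germ cells, 2 higher in feeder cells and 3 not called, against 40.1% and 41.7% of all genes tested. The centromeric H3 variant Cenpa led with 275, 285 and 145 CPM in germ cells against 32.5, 31.4 and 9.88 CPM (2.83, SE 0.15), followed by the linker histone H1fx (2.32, SE 0.12) and the H2A.Z form H2afv (1.99, SE 0.15). H2afj, an H2A variant, was lower at 125, 111 and 225 CPM against 721, 694 and 760 CPM (-2.83, SE 0.16), as was H1f0, the linker histone known from resting cells (-1.49, SE 0.13). The third lowest value past the threshold was that of the H3.3 gene H3f3a, which was higher in germ cells (0.57, SE 0.15). Genes that transcribe and process histone messengers were mostly higher in germ cells, 14 of 16 tested, with 1 higher in feeder cells and 1 not called, against the same 40.1% and 41.7% of all genes. They were led by Casp8ap2, a component of the histone locus body (2.74, SE 0.15), Slbp (425, 425 and 388 against 95.4, 107 and 66.6 CPM, 1.74, SE 0.15) and the U7 snRNP partner Zfp473 (1.62, SE 0.40). The lowest were the cleavage scaffold Sympk (-0.42), Lsm11 of the U7 snRNP (0.48) and the exonuclease Eri1 (0.55). Of 20 histone chaperones 16 were higher in germ cells and 3 in feeder cells, read against the same background, with Asf1b (3.56), Nasp (3.02), which stores free histones, and Chaf1a (2.85) at the top, and Daxx (-0.81), Ipo4 (-0.70) and Atrx (-0.49) were higher in feeder cells.

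In single cells, any histone UMI was seen in more germ than feeder cells at a depth of 1000 UMIs. With each cell thinned to 1000 UMIs, 52.0%, 51.2% and 43.8% of germ cells carried at least 1, against 35.9%, 35.3% and 34.5% of feeder cells, in vehicle 1, vehicle 2 and EV 1. Shallower cells were left out, 146, 112 and 49 germ cells and 86, 56 and 184 feeder cells. Without thinning the vehicle shares were level, 69.2% and 68.6% of germ cells against 70.2% of feeder cells in both, at unequal depths, and in EV 1 the share was lower in germ cells, 49.8% against 56.0%. At 2000 UMIs the vehicle order was that at 1000 (73.6% and 72.3% against 57.1% and 55.0%), while in EV 1, where 26 germ cells were left, 42.3% of germ cells (25.5% to 61.1%) stood against 52.2% of feeder cells. Hist1h1b was seen in 14.0% and 16.3% of germ cells of the vehicle libraries and in 0.837% and 0.662% of feeder cells, and Hist1h2bc in 3.07% and 2.38% against 13.4% and 14.6%. The germ cell genes were seen together. In vehicle 1, Hist1h1a was found in 16.3% of germ cells with a Hist1h1b UMI (13.5% to 19.5%, 596 cells) and in 6.43% of those without (5.68% to 7.27%, 3669 cells), and Hist1h2ap in 21.5% against 8.50%. For the genes higher in feeder cells the picture was mixed, since Hist1h1c was found in 5.37% against 2.56%, while Hist1h2bc (2.18% against 3.22%) and Hist1h4i (3.19% against 3.33%) had overlapping intervals. Vehicle 2 gave the same order for the first 3 of these genes, at 15.8% against 6.13%, 16.6% against 6.8% and 4.87% against 1.94%. There Hist1h2bc was found in 2.24% against 2.40%, and Hist1h4i stood in the other order, at 3.16% against 2.28%, both again with overlapping intervals. These shares describe cells of 1 library each and carry no test.

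To relate the genes to the cycle, cells were ordered by the UMIs of 39 S and 51 G2/M genes, with no histone gene among them, after thinning to 1000 UMIs. Most germ cells held many of these UMIs. In vehicle 1, 3203 of 4265 germ cells held 10 or more such UMIs and 18 held 0 or 1, while among feeder cells 69 held 10 or more and 1134 held 0 or 1. Summed histone levels climbed with cycle UMIs in germ cells, from 395 over 614 to 1201 CPM in vehicle 1 and from 412 over 515 to 1137 CPM in vehicle 2, in cells with 2 to 5, 6 to 9 and 10 or more. EV 1 showed the same order with 321, 597 and 909 CPM. The lowest bin, 0 to 1, held only 18, 10 and 1 germ cells, at 548 (319 to 878), 206 (56.2 to 528) and 796 CPM (20.2 to 4436), and gives no order. The fibroblast check genes in germ cells went down from 1424 over 1116 to 907 CPM and from 1079 over 902 to 734 CPM across the upper 3 bins of the vehicle libraries, and stood at 1912, 4733 and 1732 CPM in EV 1, and their part in the histone sums was not tested. In feeder cells of the vehicle libraries the sum moved less, with 523, 530, 482 and 859 CPM in vehicle 1 and 514, 524, 459 and 594 CPM in vehicle 2, starting at 0 to 1. In EV 1 the bins held 1358, 934, 20 and 12 feeder cells and stood at 487, 529, 349 (219 to 529) and 985 CPM (729 to 1302).

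Within feeder cells the genes parted. Hist1h1a and Hist1h1b together went from 4.21 over 9.44 and 46.3 to 146 CPM in vehicle 1, and from 5.75 over 4.99 and 39.4 to 106 CPM in vehicle 2. Hist1h2ae and Hist1h2ap climbed likewise from 15.4 to 214 CPM and from 14.2 to 124 CPM between the lowest and the highest bin, and Hist1h1e from 20.0 to 94.2 and from 19.2 to 80.3 CPM. Hist1h2bc went down over the same bins, from 168 to 34.3 CPM and from 176 to 32.1 CPM. Hist1h4i (94.98 to 31.4 and 97.6 to 20.6 CPM) and Hist1h1c (75.4 to 28.6 and 78.9 to 16.1 CPM) shared this order. In EV 1 the 12 feeder cells of the highest bin held 1 UMI each of Hist1h2bc and Hist1h4i, and 4 of Hist1h1c, which is 80.4 CPM (21.9 to 206) against 60.8 CPM in the lowest bin, so that an order for Hist1h1c was not detectable there. Among the genes followed over the bins, which were chosen with earlier results known, those that climbed in feeder cells of the vehicle libraries were called higher in germ cells, and those that went down were called higher in feeder cells. Germ cell check genes stood at 9.06, 16.2, 59.97 and 68.5 CPM over the same bins in vehicle 1 and at 8.45, 15.0, 23.0 and 43.6 CPM in vehicle 2. Under a stricter class rule, at least 4 UMIs of the class markers and none of the other class (chosen after seeing the data), they stood at 4.14 and 12.4 CPM in the 37 and 49 feeder cells of the highest bin. Hist1h1a with Hist1h1b still measured 124 and 102 CPM there, Hist1h2ae with Hist1h2ap 190 and 127 CPM, and Hist1h2bc 45.5 and 30.9 CPM.

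**Figure D4:**
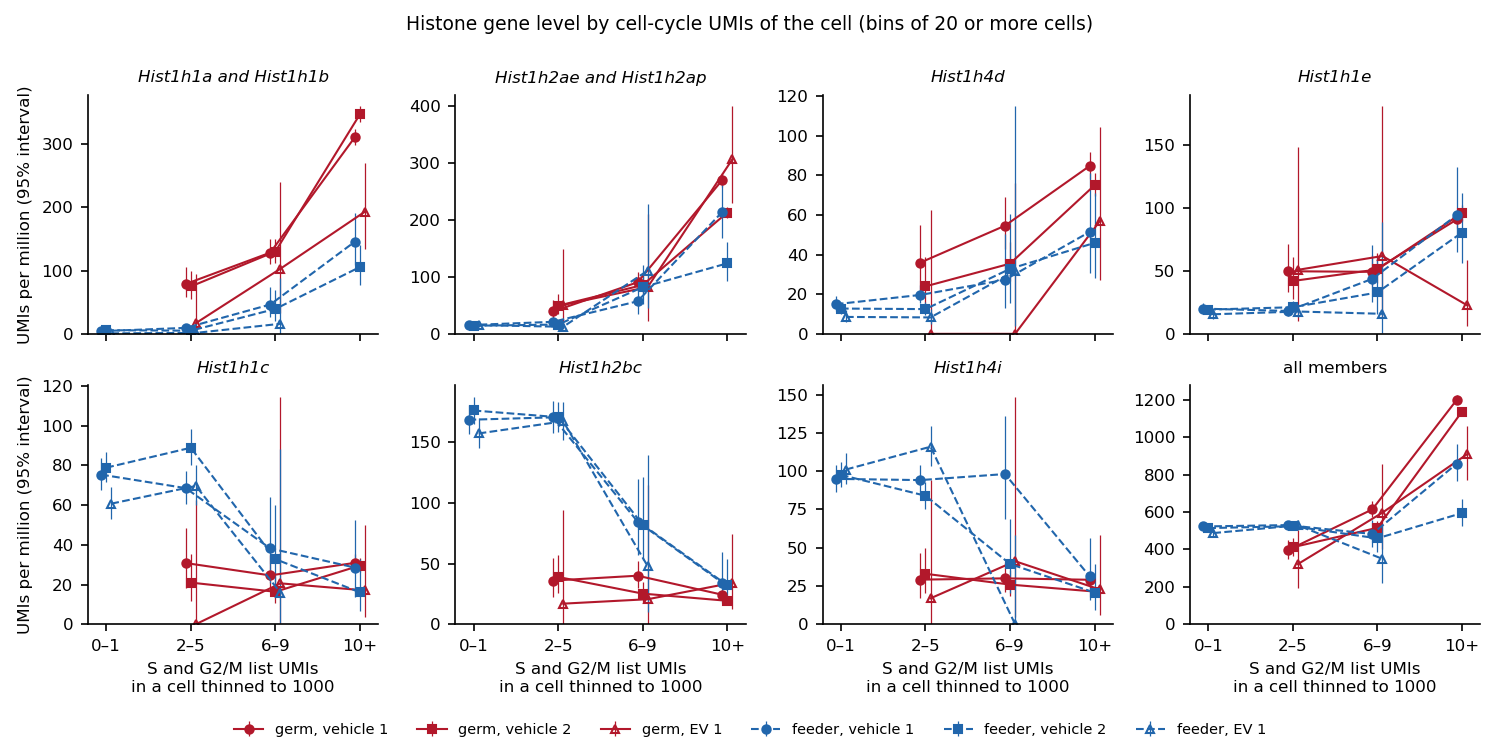
Level of histone genes (vertical axes, CPM with 95% counting intervals) in cells binned by their S and G2/M list UMIs after thinning to 1000, for germ cells (red, solid) and feeder cells (blue, dashed) of each library, in bins of at least 20 cells. Hist1h1a with Hist1h1b, Hist1h2ae with Hist1h2ap, Hist1h4d and Hist1h1e climb in both classes, whereas Hist1h1c, Hist1h2bc and Hist1h4i go down in feeder cells of the vehicle libraries between the lowest and the highest bin.

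Tests of cycle phase were limited by the few cells at either end. Cells with at least 2 S UMIs and more S than G2/M UMIs were called S-rich, the reverse G2/M-rich, and those with under 2 of each neither. In feeder cells 20 histone genes were tested among 12058 genes. Against neither, S-rich cells were higher in Hist1h1b (2.49, SE 0.37, edgeR adjusted p = 7.43e-08) and Hist1h2ap (1.12, SE 0.32, adjusted p = 0.026), 2 genes against 1.88% of all genes, and lower in Hist1h2bc (-0.43, SE 0.10), 1 gene against 0.829%. These calls changed when single libraries were left out. Without vehicle 1 no gene passed in either direction (Hist1h1b 2.08, edgeR adjusted p = 0.064), and without vehicle 2 only Hist1h1b did. G2/M-rich feeder cells, a contrast added after seeing the data, were higher than neither in 5 genes, against 3.52% of all genes, and lower in 0, against 0.738%. The 5 were Hist1h1b (2.45), Hist1h2ap (1.43), Hist1h2ae (1.02), Hist1h4d (0.69) and Hist1h1e (0.52), of which 2 passed without vehicle 1 and 3 without vehicle 2. Without EV 1, Hist1h1c (-0.31) and Hist1h2bc (-0.22) were also called, both lower. The S-rich groups held 194, 206 and 103 feeder cells. Germ cell markers moved with these calls. In S-rich feeder cells Epcam (2.15), Stk31 (1.89), Tex15 (1.73) and Dazl (1.62), which had served to class the cells, and Ddx4 (3.25) were called higher by the same test, and Taf4b (0.81) was not. In G2/M-rich feeder cells Epcam (1.36), Tex15 (1.26) and Dazl (0.94) were called higher, and Ddx4 (1.82, edgeR adjusted p = 0.060), Stk31 (0.66) and Taf4b (0.23) were not. The other 4 germ cell check genes did not pass the filter in feeder cells split by phase. Under the stricter class rule, which admits no UMI of the 4 germ cell markers to the feeder class, Hist1h1b was still higher in S-rich (2.22) and in G2/M-rich cells (2.20), as were Hist1h2ap (1.37) and Hist1h2ae (0.79) in G2/M-rich cells, whereas Hist1h2ap in S-rich cells (1.22, edgeR adjusted p = 0.091), Hist1h4d (0.46, 0.36) and Hist1h1e (0.51, 0.077) were not called.

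In germ cells the neither group held 28, 31 and 3 cells, and 6 histone genes passed the filter among 4126. Hist1h2ae was the 1 gene called higher in S-rich cells, against 1.11% of all genes, and none was called lower, against 0.8%. Its fitted value stands against libraries with no UMI and is no measure of size, and the call was lost without vehicle 1 (edgeR adjusted p = 0.35) or vehicle 2 (0.36). Hist1h1b had the next largest evidence, at 1.86 (SE 0.58, adjusted p = 0.061 in edgeR). Of the 10 fibroblast check genes 2 were tested here, and both were called lower in S-rich germ cells, S100a6 at -1.53 (SE 0.15) and Fn1 at -1.23 (SE 0.32), and their part in the histone values was not tested. Between the 2 cycling groups, G2/M-rich germ cells were slightly higher than S-rich ones in Hist1h1b (0.27, SE 0.07), Hist1h4d (0.42, SE 0.10) and Hist1h1a (0.44, SE 0.09), 3 genes against 10.1% of all genes, and lower in none, against 10.7%. In this contrast S100a6 was called lower (-0.19, SE 0.05) and Fn1 was not called (-0.06, SE 0.08). None of the 3 passed without vehicle 1 or without vehicle 2, which left 3 and 5 histone genes to test, and 6 of 37 passed without EV 1. The sums stood at 952, 882 and 731 CPM in S-rich and at 1116, 1059 and 796 CPM in G2/M-rich germ cells.

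The difference between the classes was also seen among S-rich cells alone. Of 14 histone genes tested among 9857 genes, 9 were higher in S-rich germ cells, against 35.6% of all genes, and 5 were higher in S-rich feeder cells, against 34.5%. The 9 were led by Hist1h1a (4.24, SE 0.39), Hist1h3c (3.15, SE 0.67), Hist1h2ae (3.00, SE 0.28) and Hist1h1b (2.80, SE 0.21). The 5 were Hist1h2bc (-2.59, SE 0.18), Hist3h2a (-2.03, SE 0.44), Hist1h1c (-2.0, SE 0.21), Hist1h4i (-1.47, SE 0.20) and Hist1h4h (-0.96, SE 0.38). Leaving out vehicle 1 or vehicle 2 left 3 of these 5. The number higher in germ cells ranged from 6 to 14 when a library was left out, with 14 of 22 without EV 1. S-rich was set by at least 2 UMIs, so S-rich germ cells need not match S-rich feeder cells in how far they are in the cycle. Over all cells of vehicle 1 the S list stood at 5424 CPM in germ cells and at 718 CPM in feeder cells. The list leaned on Hells, a gene higher in germ cells (4.62, SE 0.20). In thinned cells Hells made up 26.4%, 25.9% and 25.3% of S list UMIs in germ cells of vehicle 1, vehicle 2 and EV 1. In feeder cells it made up 9.27%, 6.92% and 3.93%. Its part in the S-rich groups and in the bins of cycle UMIs was not tested.

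Germ cells exposed to EVs had a lower level of captured histone molecules than vehicle germ cells, with the lowest ratios in H1 and H3. The sum was 732 CPM in EV 1 against 1062 and 1003 CPM, a ratio of 0.711 to the pooled vehicle libraries (0.623 to 0.807), or -0.49 on the log2 scale with 0.5 UMI added. H1 stood at 206 against 404 and 437 CPM (0.489, 0.379 to 0.622) and H3 at 33.8 against 71.2 and 65.5 CPM (0.497, 0.248 to 0.892). For H2A (0.947, 0.758 to 1.17), H2B (1.02, 0.710 to 1.41) and H4 (0.762, 0.536 to 1.05) the interval included 1. Replication-independent histone genes had a like ratio, 0.734 (0.698 to 0.770), and the G2/M list one of 0.729 (0.699 to 0.759). The S list stood at 4674 CPM against 5424 and 5549 CPM, a ratio of 0.851 (0.809 to 0.895). The EV germ cells were few and shallow, and the fibroblast check genes stood in them at 2.65 times the vehicle level (2.46 to 2.85), while the germ cell check genes stood at 0.973 times (0.830 to 1.13). The part of these in the lower histone sum was not tested. Among S-rich germ cells the ratio was 0.80 and its interval included 1 (0.606 to 1.04). Gene by gene, the chi-square per degree of freedom between EV 1 and the vehicle libraries was 2.47 and 2.68 over histone genes and 2.72 and 2.84 over all genes. This measure grows with the counts, and EV 1 held 238 histone UMIs in germ cells against 10035 and 11048, so it cannot be set beside the 2.93 and 2.31 between the vehicle libraries.

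A 2-fold difference was counted only where EV 1 also lay outside the vehicle pair by more than the gap between them. Of the 42 histone genes with at least 50 UMIs in germ cells, 15 were counted as 2-fold or more lower in EV 1, against 6.93% of all such genes. As 2-fold or more higher, 5 were counted, against 11.4%. The median log2 ratio was -0.49 over the 42 and 0.08 over all such genes, which were not matched to the 42 for their counts. Most of the lower genes were limited by depth. Of the 15, 10 had no UMI in EV 1, where 3 UMIs would be 9.23 CPM, and 2 had 1 to 3. The 3 that had more were Hist1h1b (28 UMIs, 0.44 times the pooled vehicle level, 0.29 to 0.64), Hist1h1a (13 UMIs, 0.44, 0.24 to 0.76) and Hist1h4d (11 UMIs, 0.47, 0.24 to 0.85). Hist1h1e stood at 0.51 (0.28 to 0.87). Among the 42, these 4 were the genes whose interval lay below 1. How common such an interval is over all genes was not determined, so the count is not a result particular to histone genes. Hist1h2ae, with 39 UMIs, stood at 1.2 (0.85 to 1.65), so that the large germ cell genes did not all stand lower. Hist2h2ac, Hist1h2be and Hist1h3a had no UMI in EV 1 and intervals that reached 1.17, 1.30 and 1.5. The highest ratio belonged to Hist3h2a, one of the feeder genes, with 7 UMIs and 4.90 times the vehicle level (1.91 to 10.5). Hist1h2br (3 UMIs) and Hist1h4h (7 UMIs, 2.11, 0.84 to 4.42) followed, with intervals that included 1.

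**Figure D5:**
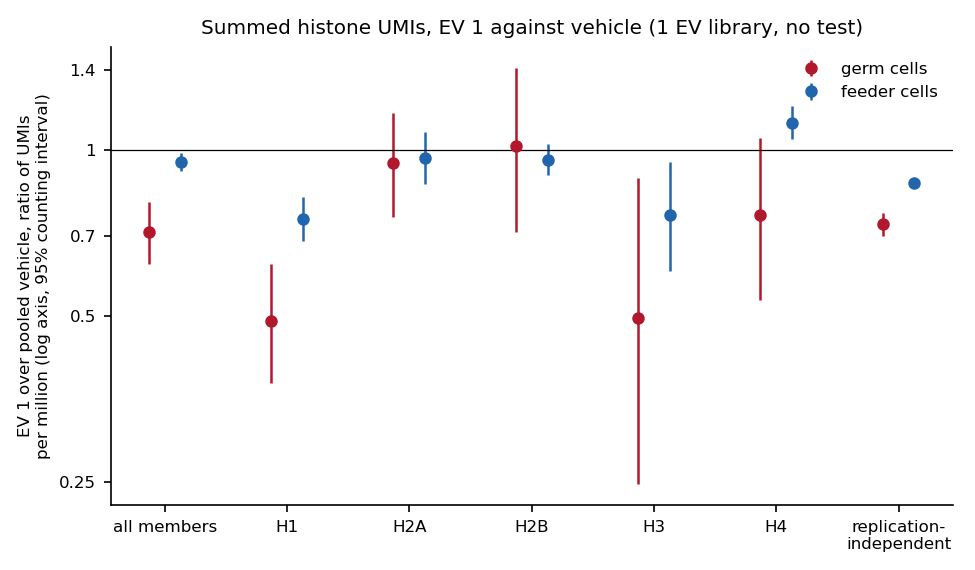
Ratio of EV 1 to the pooled vehicle libraries (vertical axis, log scale, with 95% counting intervals) for all histone genes, each family and the replication-independent histone genes, in germ cells (red) and feeder cells (blue). Germ cell H1 and H3 lie near 0.5 and the feeder sum at 0.954, and the bars cover counting error in 1 EV library only.

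In feeder cells the sum hardly differed between the arms, at 503 CPM in EV 1 against 536 and 520 CPM, a ratio of 0.954 (0.917 to 0.991) whose direction turned when libraries were scaled by TMM factors (log2 -0.07 against 0.04) or DESeq2 size factors (0.05). The families differed in direction. H1 stood lower at 85.8 against 111 and 117 CPM (0.750, 0.683 to 0.821) and H3 at 0.762 (0.605 to 0.953), while H4 stood higher at 161 against 152 and 136 CPM (1.12, 1.05 to 1.2). Of 25 genes with at least 50 UMIs, 2 were counted as 2-fold or more lower by the rule used in germ cells, against 4.7% of all such genes. As 2-fold or more higher, 0 were counted, against 2.42%. Hist1h1b had 8 UMIs in EV 1 against 108 and 94, a ratio of 0.12 (0.05 to 0.24), and Hist1h3e stood at 0.43 (0.16 to 0.95). Hist1h4d (0.57), Hist1h2ap (0.58), Hist1h1e (0.74) and Hist1h1c (0.85) also had intervals below 1. Intervals above 1 were found for Hist1h4i (1.17, 1.07 to 1.27), Hist2h2aa1 (1.39), Hist1h4h (1.45, 1.2 to 1.74) and Hist2h2ac (1.87, 1.19 to 2.91), and Hist1h4a at 1.5 included 1 (0.93 to 2.36). The share of all genes with an interval that leaves out 1 was not determined here either, so these are not results particular to histone genes. Beside these, germ cell check genes in EV 1 feeder cells stood at 0.230 times the vehicle level (0.143 to 0.351) and the S list at 0.585 times (0.562 to 0.609), and their part in the lower levels of Hist1h1b was not tested. The feeder libraries of the arms stood further apart than the vehicle libraries over all genes (a chi-square per degree of freedom of 21.95 and 22.1 against 2.27) and over histone genes (5.82 and 5.51 against 1.58).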

How the data were processed

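Single-cell libraries had been made by the authors with the 10x Genomics 3′ droplet protocol, and reads had been aligned to mm10 (GENCODE vM23) and counted with Cell Ranger 7.0.1. The deposited values are raw UMI counts per gene and barcode, without normalization, over 32285 genes. Groups came from the sample titles. EV 2 entered only as 6794 barcodes, with its expression not analysed here.

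Cells with 400 to 4000 genes and under 10% mitochondrial UMIs were kept, as in the study, and the highest Scrublet scores (scanpy 1.11.5) were removed as doublets, 0.8% for every 1000 cells (633, 697 and 198 cells of vehicle 1, vehicle 2 and EV 1). The study used another doublet caller. Counts were summed per library, class and phase, and tested with edgeR 4.0.16 (R 4.3.3, TMM factors, filterByExpr, quasi-likelihood test, two-sided, library as a block since both classes come from each library). DESeq2 1.42.0, other scalings, filters and class rules, and leaving out each library served as alternatives. The EV arm was compared without a test, as a log2 ratio to the vehicle mean with 0.5 UMI added, with exact 95% intervals of the ratio to the pooled vehicle libraries. Shares carry Wilson intervals. Intervals cover counting error only. Scripts for tests were tested on simulated data. Gene structures came from the GENCODE annotation of GRCm38 given for this work, which is not the release the study used, and promoter windows from RefSeq.

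Members, gene lists and comparisons were chosen with earlier results of these data known. Named genes are the 12 members with the most UMIs in germ cells, the 5 with the most in feeder cells, all Hist1h1 genes and, among members with at least 50 UMIs in a class, the 3 highest and 3 lowest ratios of EV 1 to vehicle. From the other histone, processing and chaperone lists, the 3 highest and 3 lowest values past the threshold are named. Any further gene was named after its values were seen, among them Hist2h2bb, Hist3h2ba, Hist2h3c1, Hist2h3c2, Hist1h4j, Hist2h4 and Hist2h2aa1.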

Additional observations from a re-analysis of the deposited data

Results flagged for a closer look

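The difference between vehicle and EV 1 had opposite signs in the 2 classes for a pair of H2A genes of the Hist2 cluster. For Hist2h2ac the log2 ratio of EV 1 to vehicle was -2.69 in germ cells and 0.88 in feeder cells, a difference of -3.57. Its germ cell value in EV 1 was 0 UMIs, and 3 UMIs in those 227 cells would be 9.23 CPM against 11.2 and 8.54 CPM in the vehicle libraries. With 5 UMIs added in place of 0.5 the germ cell value turned to 0.57, the direction of the feeder cells. For Hist2h2aa1, in which 89.0% of all 60-base windows recur in another member, the ratios were -0.43 and 0.47, a difference of -0.91, and the germ cell value in EV 1 rested on 2 UMIs. Neither difference was tested, since the EV arm had 1 library with counts.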

How the results depend on the processing

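Calls between germ and feeder cells (28 and 10 histone genes) stayed within 1.5 times under every alternative run. They were 38 and 10 of 65 genes without a filter, 24 and 9 with DESeq2, 27 and 9 without the replicate block, 20 and 10 of 36 under the stricter class rule, and 24 to 36 and 9 to 10 when a library was left out. Among the 20 tested members that the naming rule gave, those that lost their call were Hist1h2be and Hist2h2ac, and the other lost calls belonged to members not followed singly.

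Phase contrasts depended on the settings, with causes not tested. For S-rich against neither germ cells (1 higher, 0 lower), 2 were higher with DESeq2 size factors, library totals, doublets kept or no filter (which also gave 1 lower), 4 with a phase minimum of 3 UMIs, 0 with DESeq2 or the stricter class rule, and 0 to 2 higher and 0 to 1 lower when a library was left out. For G2/M-rich against S-rich germ cells (3, 0) the counts were 5 without a filter, 0 with DESeq2, 1 under the stricter class rule, and 0 to 6 higher and 0 to 1 lower without a library. For S-rich against neither feeder cells (2, 1) no gene was called in either direction (0 and 0) without the replicate block, 1 and 0 with DESeq2, 0 lower with library totals, 2 lower with doublets kept, 1 higher under the stricter class rule, 3 lower with 3 phase UMIs, and 0 to 2 higher and 0 to 1 lower without a library. For G2/M-rich against neither feeder cells (5, 0), 2 were higher with DESeq2, 1 without the replicate block and 3 under the stricter class rule, while 1 was lower with doublets kept or all barcodes and 2 with 3 phase UMIs, and 2 to 5 were higher and 0 to 2 lower without a library. For S-rich germ against S-rich feeder cells (9, 5), 18 were higher in germ cells without a filter, 3 higher in feeder cells with DESeq2, 5 and 2 with 3 phase UMIs, and 6 to 14 and 3 to 5 without a library. The library block pairs classes and phases of 1 library.

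The summed log2 ratio of EV 1 to vehicle in germ cells (-0.49) was -0.60 with TMM factors, -0.59 with DESeq2 size factors, -0.37 without Hist1h1b and -0.25 under the stricter class rule, and -0.53 to -0.45 without a vehicle library. In feeder cells (-0.07) it reversed to 0.041 with TMM factors and 0.048 with DESeq2 size factors, and was -0.11 with doublets kept and -0.09 to -0.05 without a vehicle library. In S-rich germ cells (-0.31) it was -0.50, -0.47, -0.21 with 5 UMIs added, -0.18 without the leading member and -0.45 with doublets kept, and -0.37 to -0.26 without a vehicle library. The difference in the share of germ cells with a histone UMI (-7.76 percentage points) was -30.6 with 2000 UMIs, where 26 EV cells remained, -19.1 without thinning, -9.70 with doublets kept, -13.2 under the stricter class rule, and -8.16 to -7.37 without a vehicle library. With 5 UMIs added, the EV ratios of Hist2h2ac (0.57), Hist1h2be (0.73) and Hist1h3a (0.91) in germ cells reversed, each at 0 UMIs in EV 1. No paired analysis was possible because counts of a single EV library were used and that arm was compared without a test.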
